A study of Mus musculus with 6 samples.

Results

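The 10 genes described here encode proteins that drive or hold back a cell's passage through G1, the phase before DNA replication. They include the D-type cyclins (Ccnd1, Ccnd2, Ccnd3), the E-type cyclins (Ccne1, Ccne2) and the kinases Cdk4 and Cdk6. The others are the kinase inhibitors Cdkn1a (p21) and Cdkn1b (p27), and the retinoblastoma gene Rb1. The 10 genes were taken by symbol, as a set put together with earlier results of these data known. All 10 were found among the 14883 genes of the table and passed the filter on low counts. The cells were B16F10luc2, a mouse melanoma line, grown on elastic-bottomed plates in DMEM with 10% serum at 21% oxygen. In 3 stretch samples the plates were extended by 15% in all directions of the plane, 15 times per minute, for 24 h, and in 3 static samples the same plates were not stretched. The comparison asked how expression in these cells differs under cyclic stretch. All 6 libraries came from this single line, and the labels do not state that replicates were separate cultures. The p-values below therefore reflect the variation among these libraries, which could be technical variation alone.

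D-type cyclins are made in response to growth signals and activate CDK4 and CDK6, which begin the phosphorylation of the retinoblastoma protein RB. Phosphorylated RB lets go of E2F transcription factors, whose targets include the E-type cyclins, and cyclin E with CDK2 completes the step into DNA replication. p21 and p27 block cyclin E with CDK2 and also bind cyclin D complexes. The INK4 inhibitors bind CDK4 and CDK6 alone. Much of this control acts on protein stability and phosphorylation, which mRNA levels do not show. In melanoma this pathway is often altered, and the kinases CDK4 and CDK6 are drug targets.

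Promoter windows of 250 bases before to 50 bases after a transcription start were held for 6 of the 10 genes in the RefSeq table of GRCm38.p6, in 8 windows, with Ccnd1, Ccnd2, Ccne2 and Rb1 not in it. Windows of 3 genes are shown, 5′ to 3′. They belong to the gene with the largest change, the most abundant kinase and the gene with the largest gain. For Cdkn1a only the upstream window, the one with a motif match, is shown. Capitals mark the letters of motifs searched on either strand. They are the E-box CACGTG, bound by MYC and MITF family factors, and TGATGCA, part of an ATF4-like element. The upstream Cdkn1a window lies at chr17:29090729-29091028 (plus strand), the Cdk4 window at chr10:127063285-127063584 (plus strand) and the Cdk6 window at chr5:3343643-3343942 (plus strand).
Cdkn1a: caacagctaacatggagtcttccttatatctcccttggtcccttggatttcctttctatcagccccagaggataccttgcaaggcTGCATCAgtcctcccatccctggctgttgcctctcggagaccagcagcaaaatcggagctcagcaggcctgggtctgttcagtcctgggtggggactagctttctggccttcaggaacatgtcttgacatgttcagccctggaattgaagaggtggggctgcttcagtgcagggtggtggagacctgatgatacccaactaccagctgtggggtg
Cdk4: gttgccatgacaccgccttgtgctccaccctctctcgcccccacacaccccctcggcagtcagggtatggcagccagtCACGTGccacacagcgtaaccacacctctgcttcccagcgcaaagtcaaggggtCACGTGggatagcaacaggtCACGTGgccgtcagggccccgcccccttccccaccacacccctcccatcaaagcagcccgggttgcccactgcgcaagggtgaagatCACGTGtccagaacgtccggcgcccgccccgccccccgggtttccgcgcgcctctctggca
Cdk6: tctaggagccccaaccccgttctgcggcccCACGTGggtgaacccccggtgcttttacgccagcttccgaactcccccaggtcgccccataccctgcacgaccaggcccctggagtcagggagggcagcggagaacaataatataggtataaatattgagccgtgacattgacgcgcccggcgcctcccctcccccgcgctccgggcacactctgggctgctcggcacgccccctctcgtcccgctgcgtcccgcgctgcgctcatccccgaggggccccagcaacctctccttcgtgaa
Cdk4 held 4 E-boxes, between 172 and 6 bases before its start, and Cdk6 held 1. An E-box stood in 7.2% of all 32851 windows, and 4 or more stood in 8 of them (0.0244%). The upstream Cdkn1a window held the ATF4-like letters once, on the reverse strand, 165 to 159 bases before the start, as did 3.1% of all windows on either strand. The second Cdkn1a window, at the start of the shorter gene model, and those of Cdkn1b, Ccnd3 and Ccne1 held none of the letters searched. The others searched were TTTGGCG or TTTCGCG or TTTCCCG (E2F-like, in 5.6% of windows), TTTGAA (CHR, in 17.9%), TGANTCA (AP-1, in 7.8%) and TGACGTC (CRE-like, in 3.2%), and none was in any member's window. A match describes these letters and does not show that a factor binds.

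Library totals ran from 20494344 to 36351400 counts under stretch and from 19469286 to 30042222 in static culture. The 7 melanocyte markers summed to 20300 to 20811 CPM (counts divided by the library's total, on a common scale) in stretch libraries and to 22234 to 23927 in static libraries. Of the blood, epithelial and endothelial marker lists, 2 of 7, 1 of 6 and 2 of 5 genes were in the table, with sums of at most 1.39 CPM in any library. Of 7 fibroblast markers 6 were in the table, with sums of 23.6 to 25.8 under stretch and 24.2 to 30.2 in static libraries. The static libraries differed more from each other than the stretch libraries did: the mean chi-square per gene of a pair of libraries was 1.88 to 2.30 under stretch and 3.35 to 7.67 in static culture. Levels below are CPM on library sizes scaled by TMM factors, and a gene is called where edgeR's quasi-likelihood test gave a Benjamini-Hochberg adjusted p under 0.05.

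Of the 10 G1 genes, 2 rose under stretch (Ccnd1 and Cdk6), 4 fell (Cdkn1a, Cdkn1b, Ccnd2 and Ccnd3) and 4 were not called (Ccne1, Ccne2, Cdk4 and Rb1). Their median log2 fold change was -0.03, against 0.00377 over all 12377 tested genes. Of all tested genes 50.9% were called, 24.9% higher and 25.9% lower, so a share of 6 in 10 called is near that background. With scaling by library size alone the share of higher genes among all calls was 63.2%, against 49.0% with TMM. Among the members it called 3 higher and 3 lower. The largest changes were the falls of Cdkn1a and Ccnd2, which were also the only members past a null of 1.2-fold in edgeR's glmTreat, a test that 12.9% of all genes passed. In 3 members every stretch value was above every static value, as in 29.0% of all genes, and in 3 every stretch value was below, as in 29.4%. Together these 6 of 10 compare with 58.5% of all genes. In a bulk library, fewer cells that hold a transcript and less of it per cell cannot be told apart.

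**Figure D1:**
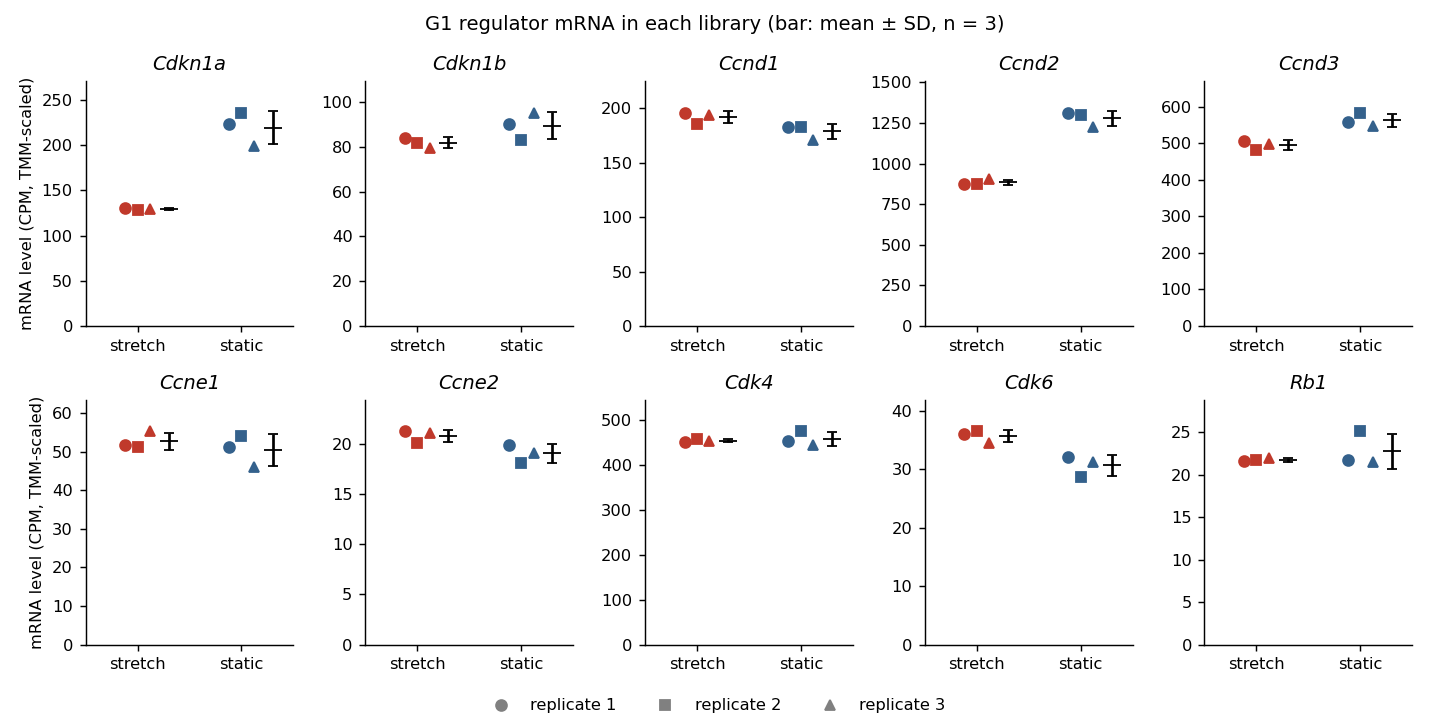
Level of each G1 regulator in CPM in the 3 stretch libraries (red, left) and the 3 static libraries (blue, right), with marker shapes for replicates 1 to 3 and a bar for the mean ± SD. All axes start at 0. Cdkn1a and Ccnd2 show the widest gaps between the groups, and Cdk4 and Rb1 overlap.

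The inhibitor genes fell, and by unequal amounts. Cdkn1a (Entrez Gene 12575; chromosome 17, 29090979 to 29100722 in GRCm38.p6) encodes p21, the inhibitor best known as a target of the tumour suppressor p53. It had 130.4, 128 and 129 CPM in stretch replicates 1, 2 and 3, against 224, 236 and 199 CPM in the static replicates. The stretch values lay within a few CPM of each other and below every static value, of which replicate 3 was the lowest. Cdkn1a averaged 129 ± 1.21 CPM under stretch and 219.5 ± 18.6 CPM in static culture (SD, n = 3 each). The level was thus 1.70-fold lower under stretch (log2 fold change -0.76, SE 0.05, edgeR adjusted p = 2.199e-08), and 544 of the 12377 tested genes had a larger change in either direction.

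Cdkn1b (Entrez Gene 12576; chromosome 6, 134920401 to 134925525), the gene of p27, an inhibitor that holds resting cells out of the cycle, had 84.1, 81.8 and 79.2 CPM in the stretch replicates and 90.2, 83.0 and 95.0 CPM in the static ones. The groups overlapped, since stretch replicate 1 lay above static replicate 2. The fall was small, with a log2 fold change of -0.13 (SE 0.05, edgeR adjusted p = 0.02911). Each of 4 libraries decided the call: leaving out static replicate 3 gave an adjusted p of 0.1191, static replicate 1 gave 0.0872, stretch replicate 2 gave 0.07774 and stretch replicate 3 gave 0.112. Also, the change was -0.07 with scaling by library size (adjusted p = 0.2644). Per kb of transcript, Cdkn1a supplied 77.6% ± 0.484 of the summed Cdkn1a and Cdkn1b level under stretch and 84.2% ± 2.03 in static culture (SD, n = 3 each). The share was 77.2, 77.4 and 78.1% in the stretch replicates, below the 84.4, 86.1 and 82.1% of the static ones. The exact permutation test gave p = 0.1, the smallest that 3 against 3 samples allow.

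Within the D-type cyclins the genes moved in opposite directions. Ccnd2 (Entrez Gene 12444; chromosome 6, 127125162 to 127152188), the gene of cyclin D2, had the highest CPM of the 10 genes. Its level was 877, 877 and 903 CPM in stretch replicates 1, 2 and 3, against 1312, 1301 and 1224 CPM in the static replicates. Every stretch value was below every static value, and static replicate 3 was again the lowest of its group. Ccnd2 averaged 886 ± 15.2 CPM under stretch and 1279 ± 47.7 CPM in static culture (SD, n = 3 each), a level 1.44-fold lower under stretch (log2 fold change -0.53, SE 0.04, edgeR adjusted p = 2.708e-08).

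Ccnd3 (Entrez Gene 12445; chromosome 17, 47505051 to 47599689), the gene of cyclin D3, fell less. It had 506, 481 and 499 CPM in the stretch replicates, against 557, 583 and 547 CPM in the static ones, and the groups did not overlap. The log2 fold change was -0.18 (SE 0.04, edgeR adjusted p = 0.0007125). With an offset per library for the GC content and length of transcripts, the change was -0.08 and was not called (adjusted p = 0.07666). The Ccnd3 transcript has 56.7% GC, the highest of the 10 members, against a median of 49.7% over the table.

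Ccnd1 (Entrez Gene 12443; chromosome 7, 144929931 to 144939831), the gene of cyclin D1, was the D-type cyclin that rose. It had 196, 186 and 194 CPM in the stretch replicates and 183, 183 and 171 CPM in the static ones. The lowest stretch value, in replicate 2, lay just above the highest static value. The log2 fold change of 0.10 (SE 0.04) was near the threshold, with an edgeR adjusted p of 0.03681. Leaving out 1 library ended the call in 4 of 6 cases: the adjusted p became 0.05358 with static replicate 1 left out and 0.1326 with static replicate 3 left out. It became 0.1506 with stretch replicate 1 left out and 0.1152 with stretch replicate 3 left out.

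With Ccnd2 lower and Ccnd1 not, the make-up of the D-cyclin mRNA pool differed between the conditions. Shares are free of the scaling between libraries, and were computed from CPM per kb of the longest transcript. Ccnd2 made up 43.8% ± 0.663 of the pool under stretch and 51.1% ± 0.576 in static culture (SD, n = 3 each). Its share was 43.0, 44.3 and 44.0% in the stretch replicates, against 51.7, 50.7 and 50.8% in the static ones, so the groups were far apart relative to their spread. Ccnd1 made up 16.1% ± 0.187 under stretch and 12.1% ± 0.110 in static culture, and Ccnd3 40.2% ± 0.485 under stretch and 36.9% ± 0.685 in static culture. For each of these 3 shares the groups did not overlap, and the exact permutation p was 0.1, the smallest possible here. The 3 shares add up to the whole pool and are not independent.

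The summed D-cyclin level was 322, 313 and 324 CPM per kb in stretch replicates 1, 2 and 3, against 401, 405 and 381 CPM per kb in the static replicates. The mean ratio of stretch to static was 0.808 (exact permutation p = 0.1). The summed level of the 2 inhibitor genes was 81.1, 79.5 and 79.6 CPM per kb in the stretch replicates, against 127, 132 and 117 CPM per kb in the static ones, a mean ratio of 0.640 (exact permutation p = 0.1). Set against each other, there were 25.1 ± 0.429 units of Cdkn1a and Cdkn1b mRNA per 100 units of D-cyclin mRNA under stretch. In static culture there were 31.6 ± 0.927 (SD, n = 3 each, exact permutation p = 0.1). Cdkn1a supplied most of this inhibitor pool, and other CDK inhibitor genes were not in it. Both pools were lower under stretch in all 3 libraries than in any static library, and the inhibitor pool was lower by the larger factor. These sums and their ratio rest on the length of the longest transcript and were not computed per kb of coding sequence.

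**Figure D2:**
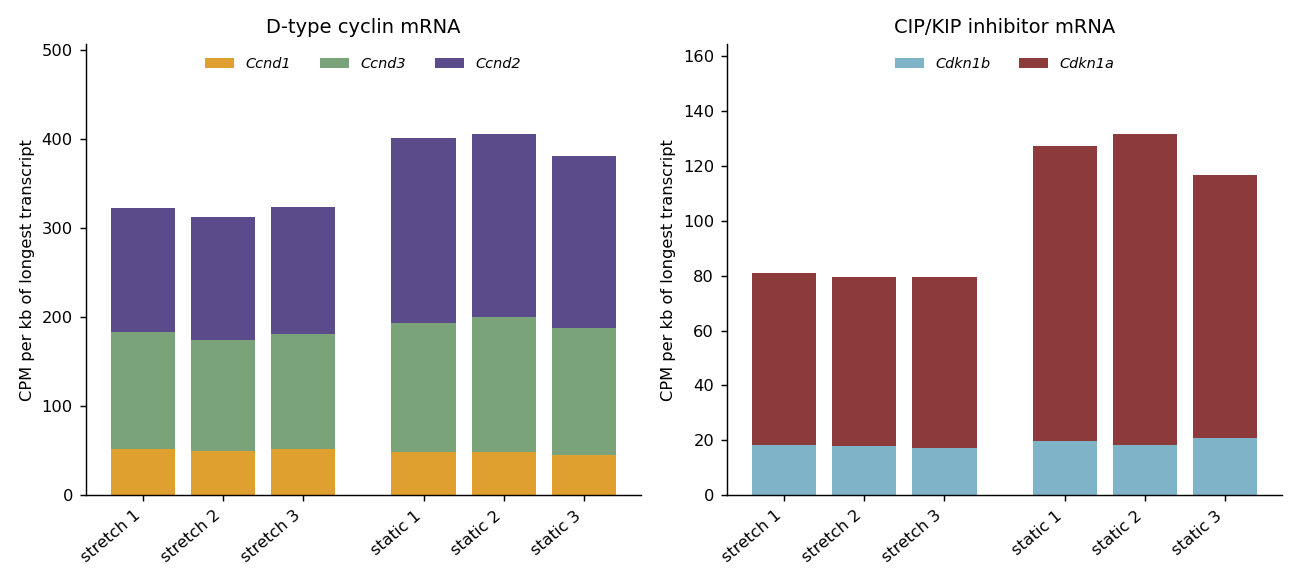
Stacked mRNA levels in CPM per kb of the longest transcript in each library, with stretch libraries left of static libraries: D-type cyclins in the left panel and the inhibitors Cdkn1a and Cdkn1b in the right panel. The Ccnd2 and Cdkn1a segments are shorter in the stretch libraries, while the Ccnd1 segment is slightly taller.

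The E-type cyclins, which act with CDK2 late in G1, were not called. Ccne1 (Entrez Gene 12447; chromosome 7, 38097984 to 38107490), the gene of cyclin E1, had 51.7, 51.2 and 55.2 CPM in the stretch replicates and 51.3, 54.1 and 46.0 CPM in the static ones. The groups overlapped, and the log2 fold change was 0.07 (SE 0.06, edgeR adjusted p = 0.3276). Without static replicate 3, the lowest library, it was -0.0012. Ccne2 (Entrez Gene 12448; chromosome 4, 11190433 to 11204779), the gene of cyclin E2, had 21.2, 20.1 and 21.1 CPM in the stretch replicates and 19.9, 18.1 and 19.1 CPM in the static ones. Its groups did not overlap, though the lowest stretch value was close to the highest static value, and the log2 fold change was 0.12 (SE 0.06, edgeR adjusted p = 0.09971). The Ccne2 transcript has 36.3% GC, the lowest of the 10 members, and with the GC and length offset its change was -0.03. Ccne1 made up 79.2% ± 0.617 of the E-cyclin level per kb under stretch and 79.9% ± 1.77 in static culture (SD, n = 3 each; exact permutation p = 0.8).

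The kinase genes differed from each other in level and in change. Cdk4 (Entrez Gene 12567; chromosome 10, 127063535 to 127067288), whose window with 4 E-boxes is shown above, had 449, 456 and 453 CPM in the stretch replicates and 452, 474 and 444 CPM in the static ones. The groups overlapped, and the log2 fold change was -0.01 (SE 0.04, edgeR adjusted p = 0.8039), so that 96.3% of all tested genes had a larger change. Cdk6 (Entrez Gene 12571; chromosome 5, 3341004 to 3531008) rose, the largest gain of the 10 members. It had 36.0, 36.4 and 34.4 CPM in the stretch replicates, against 32.0, 28.6 and 31.3 CPM in the static ones, with no overlap. The level was 1.16-fold higher under stretch (log2 fold change 0.21, SE 0.05, edgeR adjusted p = 0.003568). After the offset for GC content and length the change was 0.08 and was not called (adjusted p = 0.2125), and its longest transcript, of 11525 bases, is the longest among the members. Per kb, Cdk4 made up 98.6% ± 0.0403 of the summed kinase level under stretch and 98.8% ± 0.104 in static culture (SD, n = 3 each; exact permutation p = 0.1). Per kb of coding sequence its share was 93.2% ± 0.188 under stretch and 94.1% ± 0.492 in static culture.

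Rb1 (Entrez Gene 19645; chromosome 14, 73192858 to 73325951), the gene of the pocket protein on which the kinases act, was not called. It had 21.6, 21.7 and 22.0 CPM in the stretch replicates and 21.7, 25.1 and 21.5 CPM in the static ones. Static replicate 2 stood above the other 5 libraries, and the log2 fold change was -0.05 (SE 0.06, edgeR adjusted p = 0.5058). Without static replicate 2 it was 0.01. Lpar6, a receptor gene of low level that lies inside the span of Rb1, rose, with 5.87 ± 0.656 CPM under stretch and 4.14 ± 0.389 CPM in static culture. Other members also share their span with a neighbour: Ccnd3 with Bysl (log2 fold change -0.12), Ccne2 with Ints8 (0.20), Ccnd1 with LTO1 (0.10), Cdk4 with Tspan31 (-0.20) and Ccnd2 with the non-coding gene 9330179D12Rik, which was not called. Tspan31 had 20556 counts over the 6 libraries and 9330179D12Rik had 76. Tspan31 starts at base 127067287 and Cdk4 ends at 127067288, so these spans meet only at their ends. No source used here says whether the counting used strand, and the part of these neighbours in the members' counts was not tested.

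**Figure D3:**
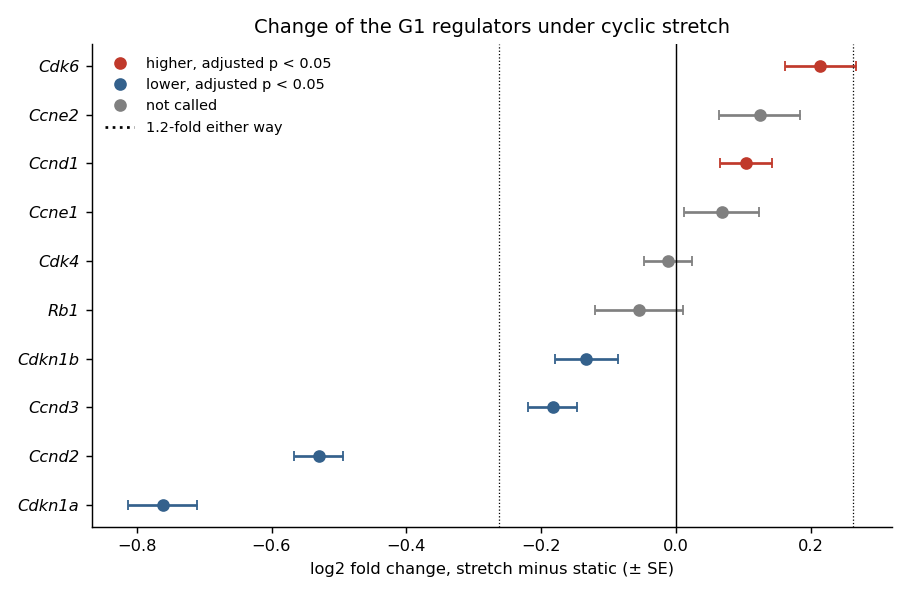
Log2 fold change, stretch minus static, of the 10 G1 regulators with its SE, from edgeR's quasi-likelihood fit. Red points rose, blue points fell and grey points were not called, and the dotted lines mark 1.2-fold either way. Only Cdkn1a (-0.76) and Ccnd2 (-0.53) lie beyond the lines.

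On the per-length scale the order of the genes was the same in stretch and static cells. Cdk4 was the most abundant at 221 ± 1.69 CPM per kb under stretch and 222 ± 7.46 in static culture (SD, n = 3 each). Ccnd2 followed with 139.9 ± 2.41 under stretch and 202 ± 7.54 in static culture, and then came Ccnd3 with 128 ± 3.34 under stretch and 146 ± 4.74 in static culture. Cdkn1a, Ccnd1, Ccne1 and Cdkn1b came next, at 62.1, 51.3, 26.4 and 17.9 CPM per kb under stretch and 106, 47.8, 25.2 and 19.6 in static culture. Ccne2, Rb1 and Cdk6 were lowest, at 6.91, 4.68 and 3.09 under stretch and 6.34, 4.89 and 2.66 in static culture. No pair of neighbours in this order overlapped in either group. The order rests on the length used: per kb of coding sequence Ccnd2 was highest, with 1022 ± 17.6 under stretch and 1475 ± 55.1 in static culture, ahead of Ccnd3 and Cdk4, and Rb1 was lowest. Of the 12135 tested genes with a length, 98.1% had a lower level than Cdk4, averaged over the 6 libraries, and 25.7% a lower level than Cdk6.

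Around the 10 members, genes of the step from G1 into S phase mostly rose while the p53 target genes mostly fell. The lists, like the members, were put together with earlier results of these data known, so their counts are descriptions. Over 9 lists of the pathway, 130 genes were tested, of which 49 rose and 33 fell; the median log2 change was 0.05. In the list of E2F target genes, which supply DNA replication, 19 of 26 rose and none fell (median 0.17). Tk1, the thymidine kinase gene, averaged 165 ± 4.52 CPM under stretch and 124 ± 4.68 CPM in static culture (SD, n = 3 each). Cdca7, a chromatin regulator gene, and Tyms, the thymidylate synthase gene, rose 1.29-fold and 1.26-fold. At an unadjusted p under 0.05 in edgeR, or by DESeq2 or limma-voom, the count of lower genes in this list was also 0. None of these counts is a test of the list, and across all genes 24.9% rose and 25.9% fell. The E-type cyclin genes, which are also E2F targets, were not in this list and were not called. Other E2F targets outside this list went both ways: E2f1 fell and Rbl1 rose, as given below.

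Cdk2, the partner kinase of the E-type cyclins, rose, although Ccne1 and Ccne2 were not called. It averaged 463 ± 4.92 CPM under stretch and 316 ± 9.28 CPM in static culture (SD, n = 3 each), a level 1.47-fold higher (log2 fold change 0.55, SE 0.03, edgeR adjusted p = 1.324e-08). Of the 8 tested genes listed for CDK2 and its activation, 4 rose and none fell. The count that fell was 0 also at an unadjusted p under 0.05 in edgeR, and by DESeq2 or limma-voom. Ccna2, the cyclin A2 gene, was 1.33-fold and Cdk1, the mitotic kinase gene, 1.31-fold higher. The other gene that rose was Wee1, of a kinase that inhibits CDKs (log2 fold change 0.12, edgeR adjusted p = 0.021). The activator genes Cdk7, Ccnh, Mnat1 and Cdc25a were not called. Wee1 and these activators were named after their values were seen. Among pocket proteins, E2F and DP factors 6 of 12 rose and 2 fell. Rbl1, the gene of the RB relative p107, rose to 104 ± 3.43 CPM under stretch, against 80.6 ± 0.747 CPM in static culture. Rbl2, the gene of p130, the relative that predominates in resting cells, fell to 56.5 ± 1.05 CPM under stretch, against 65.2 ± 1.16 CPM in static culture. Tfdp1, the E2F partner gene, and E2f3 rose by log2 fold changes of 0.32 and 0.26. E2f1, the other gene of this list that fell, had a log2 fold change of -0.16 (edgeR adjusted p = 0.002223). It was named after its values were seen. In the DREAM and MuvB list, a complex that represses cell cycle genes in resting cells or activates them later with MYBL2 and FOXM1, 3 of 9 rose and 1 fell. Mybl1, a relative of Mybl2 with a low level, was 1.46-fold higher, Lin9 1.10-fold and Foxm1 1.07-fold higher, and Lin37 fell 1.30-fold. Mybl2 itself, named after its values were seen, was not called (log2 fold change 0.06, edgeR adjusted p = 0.2162). Beside the counts of these lists, 24.9% of all genes rose and 25.9% fell.

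Of the other inhibitor genes 3 of 5 were tested, and Cdkn2a and Cdkn2b were not found among the genes of the table. Cdkn2d, the gene of an INK4 protein that binds CDK4 and CDK6, rose to 51.7 ± 2.10 CPM under stretch, against 44.1 ± 0.355 CPM in static culture (log2 fold change 0.23, edgeR adjusted p = 0.0005611). The other two, Cdkn2c and Cdkn1c, were not called, with log2 fold changes of 0.06 and -0.03. These values were named after they were seen. Of 20 tested genes in the turnover of G1 cyclins and p27, 8 rose and 4 fell, beside 24.9% and 25.9% of all genes. Skp2, the ubiquitin ligase subunit that marks p27 for destruction, rose to 80.3 ± 1.24 CPM under stretch, against 62.9 ± 1.4 CPM in static culture (log2 fold change 0.35, SE 0.04, edgeR adjusted p = 2.85e-06). Cks2, a small CDK-binding protein gene, was 1.51-fold and Cdc20, an activator of the anaphase-promoting complex, 1.24-fold higher. Ddb1, an adaptor gene of CUL4 ligases, fell 1.16-fold.

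Genes listed as growth-signal input to the cyclin D genes went both ways, with 6 of 17 higher and 6 lower. Of all genes, 24.9% were higher and 25.9% lower. Myc rose to 81.0 ± 3.34 CPM under stretch, against 53.3 ± 4.09 CPM in static culture, and Mitf, the melanocyte lineage factor gene, was 1.30-fold higher. Etv5, a target of growth factor signalling through ERK, had a low level and rose 1.81-fold, to 6.90 ± 0.249 CPM under stretch, against 3.82 ± 0.161 CPM in static culture. Fosl2, an AP-1 subunit gene, fell 1.57-fold. Among the other genes that fell, named after their values were seen, was Egr1, an immediate early transcription factor gene. Egr1 had the largest change of the list (log2 fold change -0.92, edgeR adjusted p = 5.772e-05). Also named after their values were seen were the AP-1 subunit genes Junb (-0.50) and Jun (-0.32), and Ccn1, a secreted protein gene (-0.32). Of 16 tested regulators of p21 and p27, 8 fell and 1 rose, beside 25.9% and 24.9% of all genes, with a median of -0.12. Klf4, a known activator of Cdkn1a, fell to 5.54 ± 0.525 CPM under stretch, against 10.4 ± 1.04 CPM in static culture. Klf6, which also activates Cdkn1a, fell 1.33-fold, and Foxo4, of the FOXO family that drives Cdkn1b, fell 1.23-fold. Sp1, a factor of GC-rich promoters that also activates Cdkn1a, was the member that rose, 1.16-fold. Tbx2, a repressor of Cdkn1a, was among the 8 that fell (log2 fold change -0.11, edgeR adjusted p = 0.03597). It was named after its values were seen.

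Cdkn1a was not alone among p53 targets: of the 19 other tested targets 12 fell and 1 rose, and the median log2 change of the list was -0.28. Across all genes 25.9% fell. Ddit4, Gadd45a and Sesn2 had the lowest p values, and fell 3.32-fold, 2.54-fold and 2.22-fold. These 3 genes are also induced by ATF4 or other stress pathways. Polk, a DNA polymerase gene, was the member that rose, with a log2 fold change of 0.14. Tigar, Tnfrsf10b, Sesn1, Rrm2b, Zmat3 and Btg2 were not called, with log2 fold changes of -0.17 to 0.11. Trp53 itself, singled out here after its values were seen, averaged 165 ± 3.04 CPM under stretch and 188 ± 8.19 CPM in static culture (log2 fold change -0.18, edgeR adjusted p = 0.001139).

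**Figure D4:**
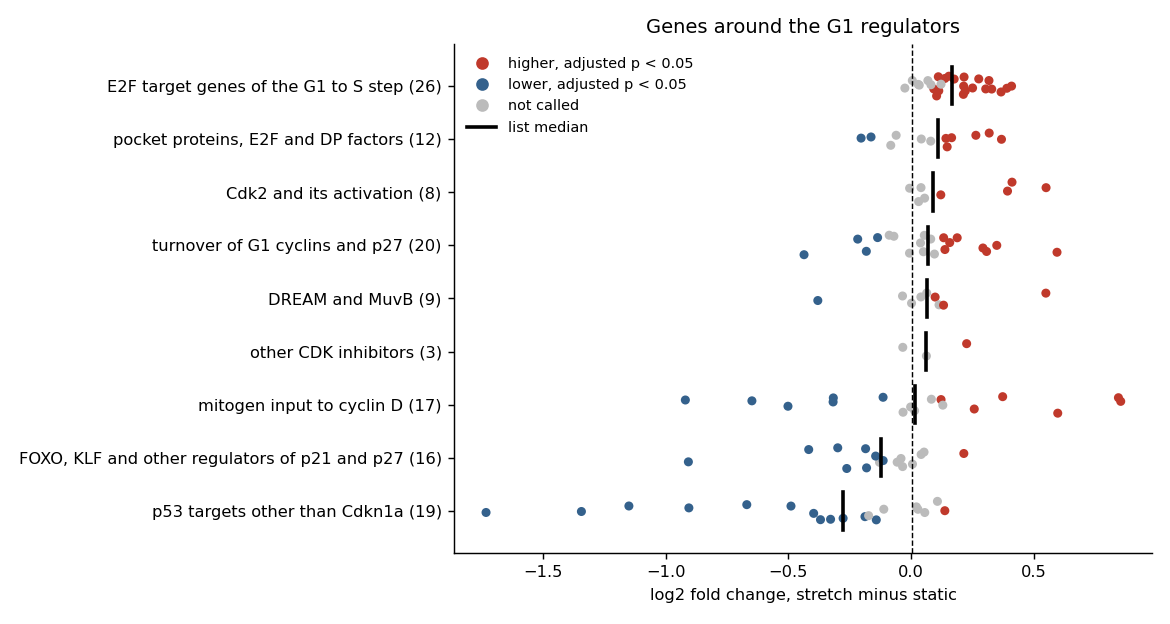
Log2 fold change, stretch minus static, of the tested genes of 9 lists around the G1 regulators, with the number tested in brackets. Red points rose, blue points fell, grey points were not called, black bars are list medians, and the dashed line is the median of all genes. E2F targets lie mostly right of 0 and p53 targets mostly left of it.

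The genes whose profiles lay closest to the 2 members with the largest change in each direction were found by the root mean square difference in centred log2 CPM over the 6 libraries. For Cdkn1a they were Aldh1l1, a cytosolic folate enzyme gene, with a difference of 0.037, then Lrrc61 with 0.038 and Mfsd11 with 0.044. Aldh1l1 averaged 29.8 ± 0.678 CPM under stretch and 50.7 ± 3.26 CPM in static culture (SD, n = 3 each). For Cdk6 they were Zmym5, Luc7l2 and Bcl7a, with differences of 0.013, 0.014 and 0.019. Zmym5 averaged 23.6 ± 0.426 CPM under stretch and 20.3 ± 1.00 CPM in static culture. With 6 libraries in 2 groups, such closeness mainly reflects a like difference between the groups.

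Some members held their call under each of 15 other settings and others did not. Cdkn1a and Ccnd2 stayed called in all 15, with log2 fold changes of -0.83 to -0.68 and -0.58 to -0.47. Ccnd3 and Cdk6 stayed called in 13 each, and lost the call against a null of 1.2-fold and with the GC and length offset. Cdkn1b was called in 9 of 15 and Ccnd1 in 8. Ccne1 and Ccne2 were called in 1 setting each, and Cdk4 and Rb1 in none.

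**Figure D5:**
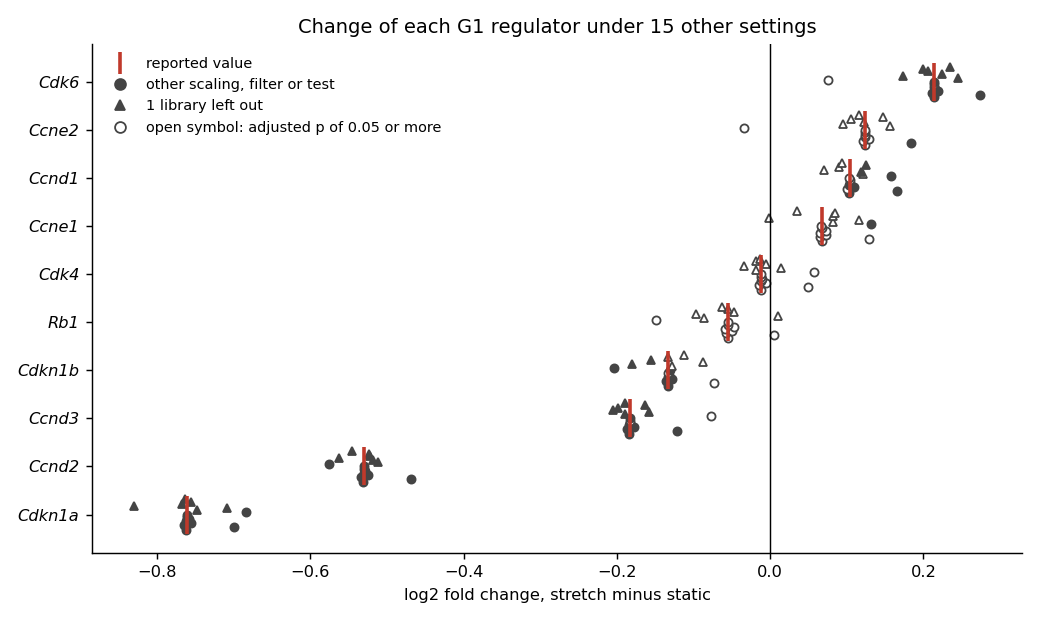
Log2 fold change, stretch minus static, of each G1 regulator as reported (red bar) and under 15 other settings, with circles for another scaling, filter or test and triangles for 1 library left out. Filled symbols passed an adjusted p of 0.05 and open ones did not. Cdkn1a and Ccnd2 have filled symbols throughout, and the symbols of Ccne1, Ccne2, Cdk4 and Rb1 include values on either side of 0.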

How the data were processed

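Per the labels' protocols, RNA was collected in Trizol and purified on RNeasy columns, and libraries followed BGI's standard procedure. The deposited table holds estimated counts per gene, as whole numbers not scaled between libraries. Salmon 1.4.0 is named, without its role, in the submitters' processing notes, as are the builds mm10 and GRCm38. No source used here gives the strand, the index or the step from transcripts to genes. Such counts divide reads between similar transcripts by a model, and every gene had at least 10 counts in all.

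RefSeq GRCm38.p6 gave symbols for 14875 of 14883 Entrez numbers; the other 8 entered the fit under their number. Lengths and GC content came from GENCODE M21 (12135 of 12377 tested genes). Genes were filtered by filterByExpr (minimum count 10), scaled by TMM and fitted in edgeR 4.0.16 (R 4.3.3) by group alone, with 4 residual degrees of freedom. P-values were two-sided and adjusted over all tested genes. SEs are the change divided by the square root of F. No columns were left unused. The procedure was tested on simulated counts.

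Alternatives were RLE and library-size scaling, other filters, DESeq2 1.42.0, limma-voom (limma 3.58.1), glmTreat, the replicate block, the GC and length offset, and leaving out each library. The members, lists and motifs were chosen with earlier results of these data known. Named pathway genes are, per list, its 3 called genes of lowest p in the commoner direction and the 1 of lowest p in the opposite direction; for the list with equal counts the higher direction was taken.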

Additional observations from a re-analysis of the deposited data

How the results depend on the processing

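Counts of called members were 2 higher and 4 lower. They became 0 higher (0 also at an unadjusted p under 0.05) and 2 lower in edgeR's glmTreat against a null of 1.2-fold, where pathway genes numbered 13 higher and 11 lower. Without a count filter 1 member was higher. With scaling by library size 3 members were higher and 3 lower, and 64 pathway genes were higher and 28 lower, against 49 and 33. Leaving out 1 library gave 1 to 2 members higher, 3 to 4 lower, and 38 to 48 pathway genes higher and 28 to 35 lower.

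The calls of Cdkn1b (-0.1328), Ccnd1 (0.1039), Ccnd3 (-0.1831) and Cdk6 (0.214) were lost against 1.2-fold, which tests the same changes. Ccnd1 was also lost without a count filter (0.1005). The GC and length offset gave -0.07741 for Ccnd3 and 0.07551 for Cdk6, and 0.1317 and a call for Ccne1. It gave opposite signs for Ccne2 (-0.03351) and Cdk4 (0.05704). For Ccnd1 (0.1582) and Cdkn1b (-0.2036) it gave larger changes that stayed called, and for Rb1 -0.1487 without a call. Library-size scaling gave -0.07277 for Cdkn1b, 0.1651 for Ccnd1, which stayed called, and 0.1841 and a call for Ccne2. It gave opposite signs for Cdk4 (0.04975) and Rb1 (0.005398). Over the 6 libraries left out in turn, log2 fold changes ran from -0.1799 to -0.08777 for Cdkn1b and from 0.06988 to 0.1255 for Ccnd1. They changed sign for Ccne1 (-0.001212 to 0.1154), Cdk4 (-0.03369 to 0.01411) and Rb1 (-0.09743 to 0.01063), as did the Ccne1 share (-1.42 to 0.3165 percentage points). The share of Ccnd1 differed by 3.976 points per transcript kb and 3.314 per coding kb, that of Cdk4 by -0.1994 and -0.9377, and that of Cdkn1a by -6.629 and -8.941. Beyond the length used, the cause of these shifts was not tested.

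With the replicate number as a block, 1 member was higher, since Ccnd1 lost its call (0.1034, adjusted p = 0.05986), and 2924 genes rose and 3043 fell, against 3087 and 3211 without it. Same-numbered libraries did not deviate together (correlations of -0.077 to 0.00505), and 1 of 6 libraries was closest to its own number. The exact test of 3 against 3 cannot go below 0.1. Ccne2, with 340 to 790 counts per library, had the least depth of the members.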
